A study of Mus musculus with 10 samples.

Results

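The autophagy and mitophagy genes described here are 44 named genes, each matched by symbol to 1 of the 46517 gene IDs counted per library. They divide into 17 genes of initiation and membrane supply, 16 of the conjugation of the LC3 and GABARAP proteins, 5 cargo receptors, 4 mitophagy genes and 2 transcription factors. All 44 passed the filter on low counts, and 42 had more than 200 reads in every library. Poly(A) RNA of whole mouse kidney was sequenced in 10 libraries of 27596391 to 34815153 counted reads (single-end, 100 bases). By genotype label there are 4 groups, namely G1 of human APOL1 (n = 2), G2 of human APOL1 (n = 2), wild type (single mutant), with n = 3, and Control, also with n = 3. Both alleles raise the risk of kidney disease in people, and the study expressed APOL1 variants in podocytes, the epithelial cells of the glomerular filter. The labels do not explain the words single mutant, and give neither the promoter that drives the transgene nor the age, sex or strain of the mice. Whether libraries stem from different mice is not said, and p-values therefore reflect only how far these libraries scatter, some of which may be technical. Titles of the wild type (single mutant) libraries share their opening letters with titles of other groups, and what these letters stand for is not explained. The human transgene was not analysed here.

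Autophagy delivers cytoplasm and organelles to the lysosome inside a double membrane, the autophagosome. The ULK1 kinase complex and a class III phosphatidylinositol 3-kinase complex built around beclin 1 start the membrane, ATG9 vesicles and the lipid transporter ATG2 supply it, and a pair of ubiquitin-like conjugation systems attach LC3 and GABARAP proteins to it. Receptors such as p62 (Sqstm1) tie cargo to these proteins, and PINK1, BNIP3, NIX (Bnip3l) and FUNDC1 mark damaged or surplus mitochondria for removal. TFEB and TFE3 are transcription factors of lysosomal and autophagy genes that bind the sequence CACGTG. Podocytes are known for a high basal rate of autophagy, and the study linked APOL1 risk alleles to this pathway. Autophagic flux is set largely at the level of proteins, and only RNA of whole kidney was measured here. Levels within podocytes were not measured apart from those of other kidney cells.

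In kidneys with the risk alleles the genes did not move one way. Against Control, with G1 and G2 averaged, 13 of the 44 fell, 5 rose and 26 were not called (quasi-likelihood test of edgeR with Benjamini-Hochberg adjustment, adjusted p under 0.05 over 17823 genes tested). Of all genes tested, 18% fell and 19.3% rose in that comparison, 37.3% in either direction, so falls were 29.5% of the members beside 18% of all genes and rises 11.4% beside 19.3%. Against wild type (single mutant), 15 fell and 4 rose, where 19.3% of all genes fell and 20.7% rose, 40% in either direction. The median log2 fold change of the members was -0.15 over Control and -0.20 over wild type (single mutant), with a median of 0.00 over all genes in both. Both comparisons share the 4 risk libraries. In the text, a gene rose or fell only where this test called it.

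A total of 12 members fell and 4 rose against Control as well as wild type (single mutant), and in each of these 16 the 4 risk libraries lay outside the range of the 6 others. Of all genes 15.5% fell and 16.8% rose against both. Without regard to a test, 17 of the 44 members had risk libraries apart from the 6 others, 13 below and 4 above, where 30.4% of all genes were apart, 14% below and 16.4% above. The largest falls were in Pink1, Gabarapl1 and Atg9a, with 0.466, 0.481 and 0.489 times the Control level. The rises were in Atg7, Atg16l2, Tfe3 and the weakly expressed Atg9b.

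**Figure D1:**
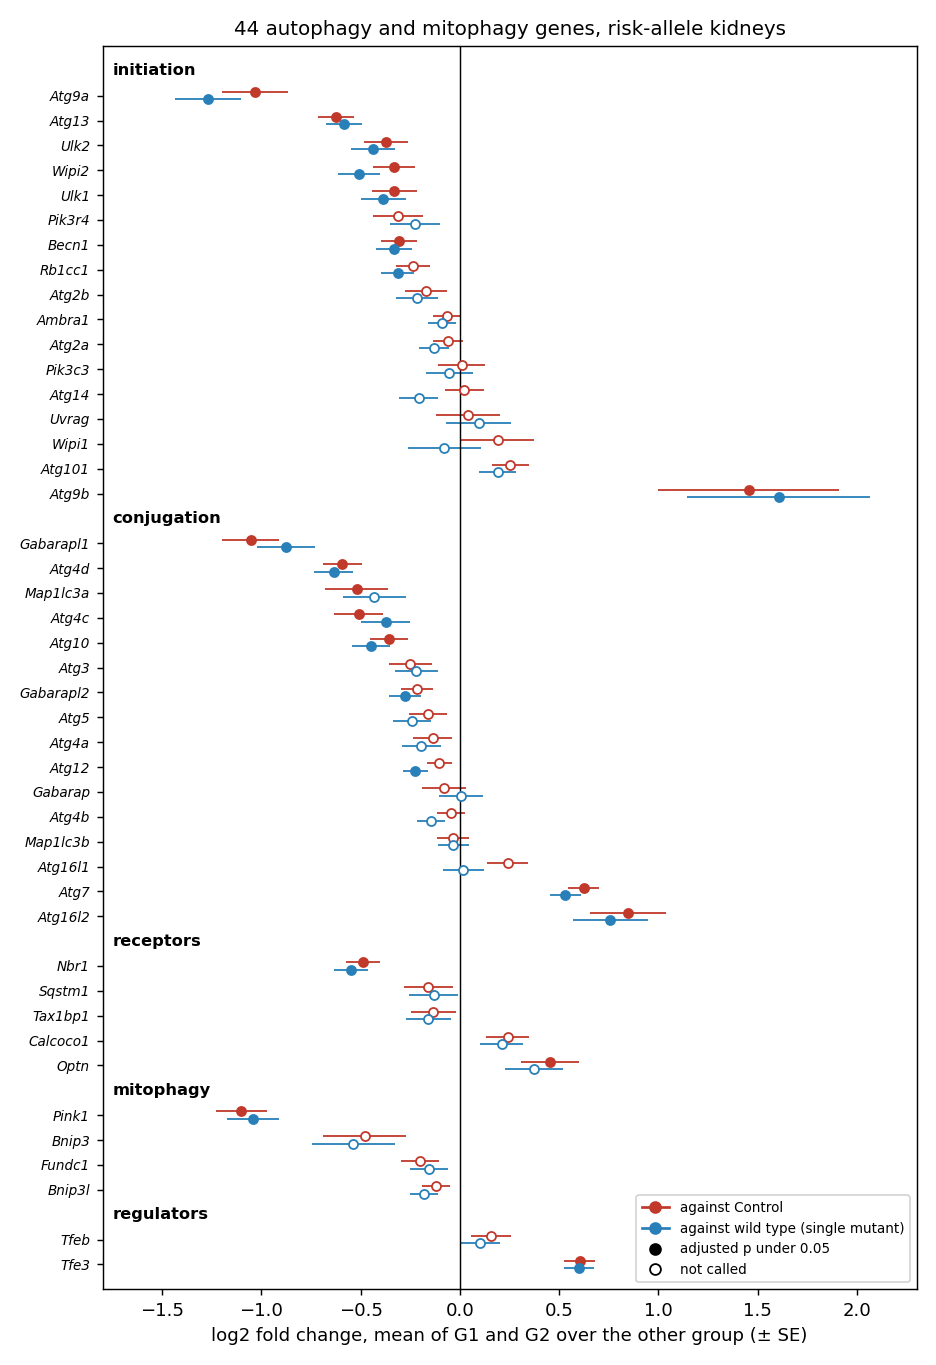
Log2 fold change (horizontal axis, ± SE) of the 44 genes in risk-allele kidneys (mean of G1 and G2) over Control (red) and over wild type (single mutant) (blue), grouped by step; filled points have an adjusted p under 0.05. Pink1, Gabarapl1 and Atg9a lie near -1 in both, and Atg9b is the one gene above 1.

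The way the libraries were scaled sets how many members count as lower. TMM factors were 1.06 to 1.17 in the 4 risk libraries and 0.880 to 0.953 in the 6 others. With library totals alone the median of all genes was 0.28 against Control, and the members' median 0.12. That is 0.15 below the median of all genes, as it was with TMM. A change of scaling shifts all genes together, so this gap is nearly fixed by construction and is no second result. With library totals 11 members (25%) were called higher and 5 (11.4%) lower against Control, beside 33.9% and 8.98% of all genes. Against wild type (single mutant) 10 (22.7%) were higher and 6 (13.6%) lower, beside 34.9% and 9.6% of all genes. The sign of the fold change differed between the scalings in 16 members against Control and in 18 against wild type (single mutant), each of them below 0 with TMM. Calls that held with both scalings and against both other groups were the falls of Atg13, Atg9a, Atg4d, Gabarapl1 and Pink1 and the rises of Atg9b, Atg7, Atg16l2 and Tfe3. All but that of Atg9b were also kept whichever library was left out. The falls of Ulk1, Ulk2, Becn1, Wipi2, Atg4c and Atg10 were lost against both other groups with library totals, and those of Nbr1 and Map1lc3a against Control. The falls of Rb1cc1, Atg12 and Gabarapl2 against wild type (single mutant) were lost as well.

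**Figure D2:**
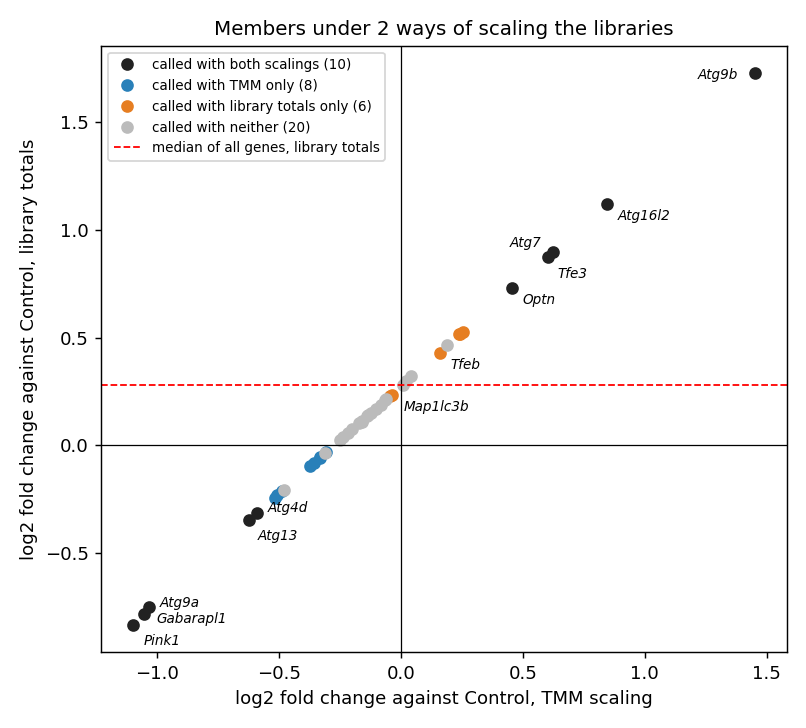
Log2 fold change of each of the 44 genes in risk-allele kidneys against Control with TMM scaling (horizontal) and with library totals (vertical); colours give the scaling under which a gene was called. The 10 genes called with both include Pink1 and Gabarapl1 at the lower left and Atg9b and Atg16l2 at the upper right, and the dashed line marks the all-gene median of 0.28 with library totals.

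Markers of kidney and immune cell types moved in the same libraries, and in bulk kidney fewer cells of a type and less RNA per cell cannot be told apart. All 10 proximal tubule markers fell against Control, and their summed level was 5131 to 10933 CPM in the 4 risk libraries and 20808 to 23105 CPM in the 6 others, with no marker at 0 in any library. All 5 distal convoluted tubule markers fell (318 to 576 against 1018 to 1874 CPM). All 8 tubular injury markers rose (4827 to 29862 against 772 to 1391 CPM), as did all 10 macrophage markers (767 to 1125 against 145 to 225 CPM) and 4 of 6 fibroblast markers (573 to 1775 against 241 to 389 CPM). The sums of the 8 podocyte markers overlapped (201 to 298 against 193 to 514 CPM). All 3 neutrophil markers tested rose, at low sums over the list of 5 (3.91 to 5.87 against 0.992 to 2.14 CPM). All 6 erythroid markers tested fell (list of 7, 21.3 to 268 against 359 to 1065 CPM). The other lists did not move as a whole. Of 5 thick ascending limb markers 3 fell and 1 rose (3125 to 4710 against 4444 to 6592 CPM). Of 8 collecting duct markers 2 fell and of 6 endothelial markers 1, with overlapping sums. Of 7 T and NK cell markers 4 rose. Of 6 B and plasma cell markers 1 fell and of 5 adipose markers 1, with overlapping sums. The 1 skeletal muscle marker tested was not called against Control. The part of these shifts in the changes of the autophagy genes was not tested.

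Promoter sequences were compared because TFEB and TFE3 bind CACGTG. RefSeq promoter windows (GRCm38.p6, 250 bases before to 50 after the start) were found for 37 of the 44 genes. CACGTG, which reads the same on both strands, was in windows of 5 of these 37 genes (13.5%): Atg3, Atg5, Atg7, Atg14 and Bnip3. Over all 27025 genes with windows the share was 8.09%. The longer TCACGTGA, which contains it, was in Atg3 alone (2.7% of the 37 beside 1.12% of all), and the CLEAR consensus, which extends it by a base on each side, in 0 of 37 (0.37% of all). Only Atg7 of the 5 was called in risk kidneys. The RefSeq windows of Atg7 and Atg14 lie wholly inside their GENCODE genes, so their matches are not upstream of the annotated gene. The stretches upstream of the annotated gene are shown for the gene with a pair of matches, for a mitophagy gene with 1, and for Gabarapl1 and Pink1, whose falls against Control were the largest and whose windows hold none. The RefSeq start of Atg9a also lies inside the GENCODE gene, and its window is not printed. Capitals mark CACGTG.
Atg3 chr16:45158579-45158784 (+ strand): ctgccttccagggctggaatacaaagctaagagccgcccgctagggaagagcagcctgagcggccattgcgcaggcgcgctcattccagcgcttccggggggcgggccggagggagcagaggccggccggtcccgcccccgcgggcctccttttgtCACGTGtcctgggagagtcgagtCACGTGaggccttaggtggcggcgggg
Bnip3 chr7:138909520-138909756 (- strand): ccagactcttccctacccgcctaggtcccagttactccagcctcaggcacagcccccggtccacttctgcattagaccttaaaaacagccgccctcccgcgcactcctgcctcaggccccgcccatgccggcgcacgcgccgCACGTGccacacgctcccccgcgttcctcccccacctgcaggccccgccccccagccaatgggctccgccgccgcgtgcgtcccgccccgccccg
Gabarapl1 chr6:129532942-129533159 (+ strand): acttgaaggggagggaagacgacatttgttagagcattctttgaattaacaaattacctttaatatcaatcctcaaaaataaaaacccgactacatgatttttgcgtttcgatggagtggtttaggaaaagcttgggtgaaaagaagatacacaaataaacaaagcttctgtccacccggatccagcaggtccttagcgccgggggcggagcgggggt
Pink1 chr4:138326308-138326546 (- strand): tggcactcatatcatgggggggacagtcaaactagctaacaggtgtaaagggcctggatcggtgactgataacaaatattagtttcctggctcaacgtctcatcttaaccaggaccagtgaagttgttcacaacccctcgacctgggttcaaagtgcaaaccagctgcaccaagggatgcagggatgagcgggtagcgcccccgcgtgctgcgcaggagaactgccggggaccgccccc
A match is only a description of these letters, and no binding was measured.

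With TMM, the initiation genes that were called were lower, with 1 exception. Of 17, 6 fell against both other groups (Ulk1, Ulk2, Atg13, Becn1, Atg9a and Wipi2) and Atg9b rose. Over all genes, 15.5% fell and 16.8% rose against both. With library totals Atg13 and Atg9a were called lower against both groups, and Atg101 and Atg9b higher. Ulk1, Ulk2, Becn1 and Wipi2 were then called against neither group. Ulk1 (ENSMUSG00000029512.10, chromosome 5, 110784488 to 110810097), the kinase that starts autophagy, had 65.4 and 59.0 CPM in G1, 53.4 and 66.8 in G2, 75.9, 83.8 and 80.0 in wild type (single mutant) and 67.5, 76.4 and 86.9 CPM in Control kidneys. Its log2 fold change was -0.33 ± 0.11 (SE) over Control and -0.39 ± 0.11 over wild type (single mutant), with adjusted p = 0.0458 and 0.024. The 4 risk libraries lay below the others by a narrow gap, with the highest of them at 66.8 CPM and the lowest Control library at 67.5 CPM. The call against Control was lost in each leave-out other than those of G2 replicate 2 and Control replicate 1, with an adjusted p of up to 0.166, and that against wild type (single mutant) without G1 replicate 2, G2 replicate 1 or wild type (single mutant) replicate 2 or 3 (up to 0.0781). The call against Control was also lost with no filter on low counts (adjusted p = 0.0753) and with only the groups compared in the fit (0.076). Its paralog Ulk2 had 41.3 and 41.9 CPM in G1, 40.5 and 48.5 in G2, 53.7, 65.5 and 55.5 in wild type (single mutant) and 53.1, 51.0 and 63.2 CPM in Control kidneys. It fell by 0.37 against Control (log2, adjusted p = 0.0284) and by 0.44 against wild type (single mutant) (adjusted p = 0.0136). These calls were lost against Control without either G1 library, G2 replicate 1, Control replicate 1 or Control replicate 3 (adjusted p up to 0.108), and against wild type (single mutant) without its replicate 2 (0.0554).

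Atg13, the regulatory subunit of the ULK complex, showed a wider gap. It had 43.1 and 37.7 CPM in G1, 39.9 and 43.6 in G2, 58.4, 68.3 and 58.0 in wild type (single mutant) and 61.5, 62.2 and 66.2 CPM in Control kidneys. The highest risk library, at 43.6 CPM, was below the lowest of the 6 others, at 58.0 CPM. Its log2 fold change was -0.62 ± 0.09 over Control and -0.58 ± 0.09 over wild type (single mutant) (adjusted p = 0.00101 and 0.00121). Of the other subunits, Rb1cc1, the scaffold FIP200, fell against wild type (single mutant) (-0.31 ± 0.08, adjusted p = 0.0165) but was not called against Control (-0.24 ± 0.08, adjusted p = 0.0537), and the first call was lost without G1 replicate 2 or wild type (single mutant) replicate 2 (adjusted p up to 0.0546). Rb1cc1 was also called lower than Control without G2 replicate 2 or Control replicate 2 (adjusted p down to 0.0428). Atg101, the partner of Atg13, was not called, at 0.25 ± 0.09 against Control. It was called higher with library totals, and without G2 replicate 2 (adjusted p = 0.0174 against Control and 0.0369 for wild type (single mutant)).

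In the phosphatidylinositol 3-kinase complex only the beclin gene was called. Becn1 (ENSMUSG00000035086.12, chromosome 11, 101285952 to 101302286) had 71.4 and 69.5 CPM in G1, 62.9 and 76.4 in G2, 87.8, 88.8 and 88.1 in wild type (single mutant) and 87.2, 79.8 and 93.1 CPM in Control kidneys. It fell by 0.31 against Control (log2, SE 0.09, adjusted p = 0.0251) and by 0.33 against wild type (single mutant) (adjusted p = 0.0168). The risk libraries did not overlap the others, with the highest risk library at 76.4 CPM and the lowest Control library at 79.8 CPM. The call against Control was lost without either G1 library, G2 replicate 1, Control replicate 1 or Control replicate 3 (adjusted p up to 0.0913), and that against wild type (single mutant) without G1 replicate 2 (0.0503). With no filter the adjusted p against Control was 0.0664, and with only the groups compared 0.0505. Becn1 shares 43.9% of its annotated exonic bases with Cntd1 on the opposite strand, and Cntd1 itself stayed at 0.26 to 1.23 CPM in all libraries. The catalytic subunit Pik3c3, the subunits Pik3r4, Atg14 and Uvrag and the beclin partner Ambra1 were not called against either group, with log2 fold changes against Control of -0.31 (Pik3r4) to 0.04 (Uvrag). Pik3r4 was called lower without G2 replicate 2 (adjusted p = 0.00893 against Control and 0.0183 for wild type (single mutant)), and Atg14 lower than wild type (single mutant) without replicate 2 of that group (adjusted p = 0.0385).

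Atg9a and Atg9b, the paralogs of the transmembrane scramblase ATG9, differed in direction. Atg9a (ENSMUSG00000033124.14, chromosome 1, 75180860 to 75192196), the widely expressed form, had 17.95 and 13.8 CPM in G1, 11.2 and 17.7 in G2, 38.7, 37.9 and 32.9 in wild type (single mutant) and 27.8, 30.7 and 34.6 CPM in Control kidneys. The highest risk library was at 17.95 CPM and the lowest of the others at 27.8 CPM. The log2 fold change was -1.03 ± 0.17 over Control and -1.27 ± 0.17 over wild type (single mutant) (adjusted p = 0.00172 and 0.000574). Atg9a shares 31.8% of its exonic bases with Gm29253, a same-strand transcript that was counted at 0.104 CPM or less, and how reads of the shared part were counted is not given in the sources used here. Atg9b had 0.891 and 0.806 CPM in G1, 0.617 and 0.697 in G2, 0.171, 0.146 and 0.409 in wild type (single mutant) and 0.139, 0.434 and 0.239 CPM in Control kidneys. These are 34, 32, 19 and 28 reads in the risk libraries and 4 to 12 reads in the 6 others. Atg9b shares 7.45% of its exonic bases with Nos3 on the opposite strand. Nos3 was far more abundant, at 5.31 to 14.1 CPM in the risk libraries and 6.46 to 9.27 CPM in the others. Without a stated strand setting the few reads of Atg9b may include some of Nos3, so its counts and direction are uncertain. Atg9b rose by 1.45 ± 0.46 against Control (log2, adjusted p = 0.0341) and 1.61 ± 0.46 against wild type (single mutant) (adjusted p = 0.0221). The call was lost against Control without any 1 of the risk libraries, Control replicate 1 or Control replicate 3 (adjusted p up to 0.111), and against wild type (single mutant) without either G1 library or wild type (single mutant) replicate 1 or 2 (up to 0.0803).

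Among the genes that read the lipid signal, Wipi2, which brings the conjugation machinery to the membrane, had 99.9 and 97.3 CPM in G1, 115 and 105 in G2, 158, 161 and 126 in wild type (single mutant) and 123, 128 and 143 CPM in Control kidneys. It fell by 0.33 against Control (log2, adjusted p = 0.0351) and by 0.51 against wild type (single mutant) (adjusted p = 0.005), with no overlap of the risk libraries and the others. The call against Control was lost without any 1 of the risk libraries or without Control replicate 2 or 3 (adjusted p up to 0.124), and with no filter (0.073). Its paralog Wipi1 was not called and varied within groups, with Control libraries between 25.9 and 41.4 CPM. The lipid transporter genes Atg2a and Atg2b were not called, at -0.06 ± 0.08 and -0.17 ± 0.11 against Control.

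**Figure D3:**
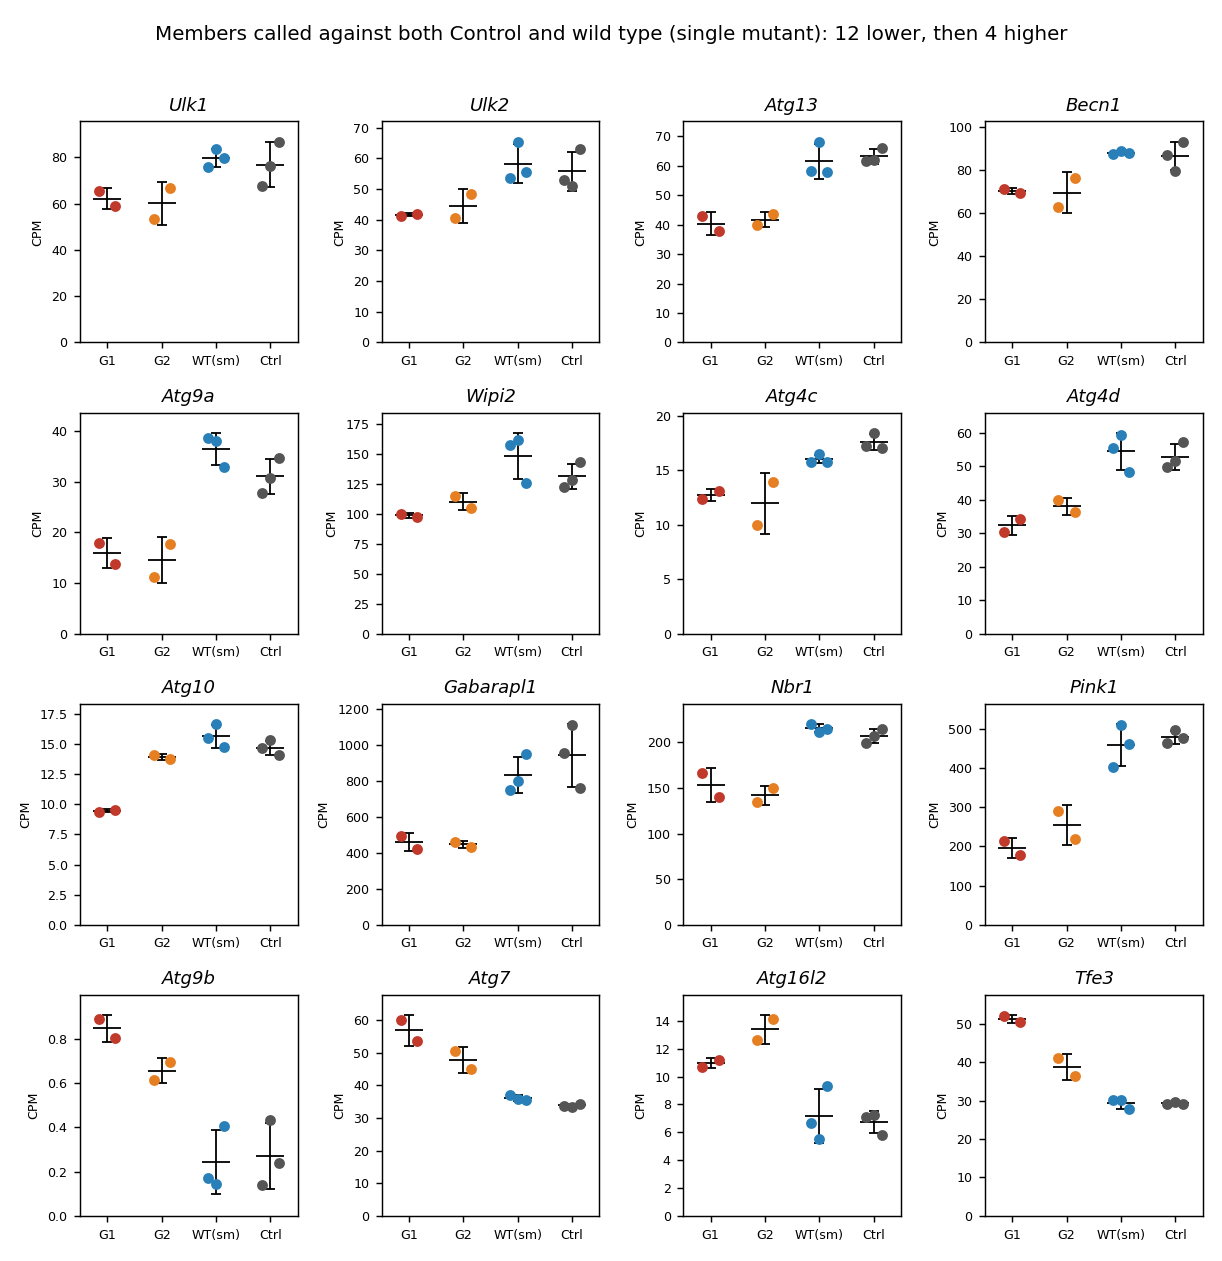
Normalised level (CPM, TMM-scaled; vertical axis from 0) in each library of the 16 genes called against both other groups; points are libraries of G1, G2, wild type (single mutant) (WT(sm)) and Control (Ctrl), and bars give the mean ± SD. In all 16 the G1 and G2 points lie outside the range of the 6 others; the difference between G2 and G1 was called in Atg10 and Tfe3.

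The conjugation genes moved in both directions. Of 16, 4 fell against both other groups (Atg4c, Atg4d, Atg10 and Gabarapl1), 2 rose (Atg7 and Atg16l2), and 9 were not called against Control. The rises were 12.5% of the 16, below the 16.8% of all genes that rose against both. Falls against both were 15.5% of all genes. Atg7 (ENSMUSG00000030314.15, chromosome 6, 114643097 to 114860614), the E1-like enzyme that activates both ATG12 and the LC3 proteins, had 60.2 and 53.5 CPM in G1, 50.6 and 45.0 in G2, 37.1, 35.7 and 35.4 in wild type (single mutant) and 33.7, 33.4 and 34.3 CPM in Control kidneys. The 6 other libraries lay between 33.4 and 37.1 CPM, and the lowest risk library was at 45.0 CPM. Its log2 fold change was 0.62 ± 0.08 over Control and 0.53 ± 0.08 over wild type (single mutant) (adjusted p = 0.000495 and 0.000889). Atg10, the E2-like enzyme that passes ATG12 to ATG5, went the other way, with 9.38 and 9.57 CPM in G1, 14.1 and 13.7 in G2, 15.5, 16.7 and 14.8 in wild type (single mutant) and 14.7, 15.3 and 14.1 CPM in Control kidneys. It was lowest in G1, and the G2 libraries were just below the range of the other kidneys. It fell by 0.36 against Control (log2, adjusted p = 0.0185) and by 0.45 against wild type (single mutant) (adjusted p = 0.00599), and the first call was lost without either G1 library or Control replicate 2 (adjusted p up to 0.0603) and with no filter (0.0939). Atg3, the E2-like enzyme of the LC3 proteins, was not called (-0.25 ± 0.11 against Control), except as lower without Control replicate 2 (adjusted p = 0.0281).

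Atg5, which is joined to ATG12, had 40.2 and 38.6 CPM in G1, 44.7 and 41.4 in G2, 48.0, 55.1 and 43.0 in wild type (single mutant) and 46.4, 43.1 and 48.7 CPM in Control kidneys, and these ranges overlapped (-0.16 ± 0.10 against Control, adjusted p = 0.225). It was called lower than wild type (single mutant) only without replicate 3 of that group (adjusted p = 0.0291). Atg12 was not called against Control (-0.10 ± 0.07) and fell by 0.22 against wild type (single mutant) (log2, adjusted p = 0.0231). That call was lost without either G1 library, G2 replicate 2 or any 1 of the wild type (single mutant) libraries (adjusted p up to 0.0892), with no filter (0.133) and with only the groups compared (0.051). With library totals the sign of this difference turned (0.060). Of the paralogs of the ATG16L scaffold, Atg16l1, the main form in the ATG12 to ATG5 complex, was not called (0.24 ± 0.10 over Control and 0.02 ± 0.10 over wild type (single mutant)), and with library totals it was called higher than in Control (0.52). Atg16l2 had 10.7 and 11.2 CPM in G1, 12.7 and 14.1 in G2, 6.67, 5.51 and 9.30 in wild type (single mutant) and 7.11, 7.28 and 5.81 CPM in Control kidneys, an increase of 0.85 ± 0.19 over Control and 0.76 ± 0.19 over wild type (single mutant) (adjusted p = 0.00812 and 0.0119). Per exonic length, Atg16l2 averaged 1.44 ± 0.18 RPKM in the risk libraries against 3.51 ± 0.18 RPKM for Atg16l1 (SD, n = 4), so it was the less abundant of the pair.

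The ATG4 proteases, which trim LC3 and GABARAP proteins and release them from lipid, are encoded by a family in which Atg4c and Atg4d fell. Atg4d had 30.3 and 34.2 CPM in G1, 39.8 and 36.2 in G2, 55.4, 59.4 and 48.4 in wild type (single mutant) and 49.7, 51.5 and 57.1 CPM in Control kidneys, with the highest risk library at 39.8 CPM and the lowest of the others at 48.4 CPM. It fell by 0.59 against Control (log2, SE 0.10) and by 0.63 against wild type (single mutant) (adjusted p = 0.00195 and 0.00119). Atg4c had 12.3 and 13.1 CPM in G1, 9.96 and 13.9 in G2, 15.8, 16.4 and 15.8 in wild type (single mutant) and 17.2, 18.4 and 17.1 CPM in Control kidneys. It fell by 0.51 against Control and by 0.37 against wild type (single mutant) (log2, adjusted p = 0.0119 and 0.0396), and the call against wild type (single mutant) was lost in every leave-out except that of G2 replicate 2 (adjusted p up to 0.106), with no filter (0.0846) and with only the groups compared (0.0733). Atg4a and Atg4b were not called, at -0.14 ± 0.10 and -0.05 ± 0.07 against Control. Atg4b was called higher with library totals (0.23). Atg4a shares 34.7% of its transcript windows of 100 bases with other genes, among them its pseudogene Atg4a-ps, and Atg4d 19.3% of its exonic bases with the opposite-strand Kri1, so that their counts are uncertain.

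Of the 5 LC3 and GABARAP genes, 1 fell against both other groups, where 15.5% of all genes did. Gabarapl1 (ENSMUSG00000030161.7, chromosome 6, 129533160 to 129542346) had 495 and 422 CPM in G1, 462 and 433 in G2, 750.3, 799.8 and 946 in wild type (single mutant) and 952, 1109 and 761 CPM in Control kidneys. The highest risk library was at 495 CPM and the lowest of the others at 750.3 CPM. The log2 fold change was -1.06 ± 0.15 over Control and -0.88 ± 0.15 over wild type (single mutant) (adjusted p = 0.000786 and 0.00168). Its promoter window is printed above and holds no CACGTG. The antisense transcript 1700101I11Rik overlaps 28.3% of the exonic bases of Gabarapl1 and was lower as well, at 1.16 to 1.81 CPM in the risk libraries and 3.32 to 5.31 CPM in the 6 others, and without a stated strand setting reads of the pair cannot be told apart.

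Gabarap had 427 and 418 CPM in G1, 453 and 353 in G2, 385, 458 and 391 in wild type (single mutant) and 443, 448 and 417 CPM in Control kidneys. These ranges overlapped and the gene was not called (-0.08 ± 0.11 against Control, adjusted p = 0.598), but with library totals it was called higher than in wild type (single mutant). Per exonic length, Gabarapl1 averaged 225 ± 16.1 RPKM in the risk libraries (SD, n = 4) and 467 ± 86.7 RPKM in Control (n = 3), while Gabarap averaged 224 ± 22.9 RPKM in the risk libraries and 237 ± 9.23 RPKM in Control. The 2 genes, the most abundant members per length, thus stood at levels within 1 SD of each other in the risk kidneys and apart in Control. Map1lc3b, whose protein LC3B is the usual marker of autophagosomes, had 157 and 142 CPM in G1, 137 and 124 in G2, 148, 139 and 141 in wild type (single mutant) and 142, 151 and 137 CPM in Control kidneys. It was not called against Control (-0.04 ± 0.08) or wild type (single mutant) (-0.03 ± 0.08), and with library totals it was called higher against both (0.24 and 0.25). Map1lc3a had 67.5 and 65.1 CPM in G1, 99.2 and 88.7 in G2, 79.8, 136 and 104 in wild type (single mutant) and 122, 103 and 115 CPM in Control kidneys. It was lowest in G1, and it fell by 0.52 against Control (log2, adjusted p = 0.0309). That call was lost without any 1 of the risk libraries, Control replicate 1 or Control replicate 3 (adjusted p up to 0.0967). With library totals Map1lc3a was not called against Control (-0.25, adjusted p = 0.196). Against wild type (single mutant), where the groups overlapped, it was not called (-0.43 ± 0.16, adjusted p = 0.0571), except by DESeq2 or without replicate 1 of that group (adjusted p = 0.0101). Gabarapl2 had 37.6 and 36.0 CPM in G1, 34.4 and 33.0 in G2, 41.4, 46.3 and 40.4 in wild type (single mutant) and 43.7, 38.6 and 40.6 CPM in Control kidneys. It fell by 0.28 against wild type (single mutant) (log2, adjusted p = 0.0239), a call lost without either G1 library, G2 replicate 2 or wild type (single mutant) replicate 2 (adjusted p up to 0.0886) and with no filter (0.0895), and was not called against Control (-0.22 ± 0.08). With library totals its difference from wild type (single mutant) was 0.010.

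Of the 5 cargo receptors, Nbr1 fell, Optn rose against Control alone and 3 were not called. Against Control these are 20% each way, near the 18% and 19.3% of all genes that fell and rose. Sqstm1 (ENSMUSG00000015837.14, chromosome 11, 50199366 to 50210827), which encodes p62, had 649 and 543 CPM in G1, 642 and 491 in G2, 605, 693 and 610.4 in wild type (single mutant) and 693, 609 and 645 CPM in Control kidneys. These ranges overlapped, with log2 fold changes of -0.16 ± 0.12 over Control and -0.13 ± 0.12 over wild type (single mutant) (adjusted p = 0.342 and 0.43). Sqstm1 shares 17.3% of its exonic bases with Mrnip on the opposite strand, which was counted at 2.90 to 7.52 CPM and fell against Control. Nbr1, a receptor that works beside p62, had 167 and 139.9 CPM in G1, 134 and 149.5 in G2, 220.4, 212 and 215 in wild type (single mutant) and 199, 207 and 214 CPM in Control kidneys. It fell by 0.49 against Control (log2, SE 0.09) and by 0.55 against wild type (single mutant) (adjusted p = 0.00258 and 0.00129), with no overlap of the risk libraries and the others. Optineurin, a receptor for ubiquitinated mitochondria and bacteria, is encoded by Optn, which had 28.04 and 21.3 CPM in G1, 17.6 and 20.9 in G2, 17.1, 13.9 and 19.4 in wild type (single mutant) and 16.5, 15.1 and 16.03 CPM in Control kidneys. The risk libraries overlapped those of wild type (single mutant). Its log2 fold change was 0.46 ± 0.15 against Control (adjusted p = 0.0368) and 0.37 ± 0.15 against wild type (single mutant) (adjusted p = 0.0693). The call against Control was lost without G1 replicate 1, G2 replicate 2, wild type (single mutant) replicate 1 or any 1 of the Control libraries (adjusted p up to 0.119). A rise over wild type (single mutant) was called with library totals, without G1 replicate 2 or without wild type (single mutant) replicate 3 (adjusted p down to 0.0374). Tax1bp1 and Calcoco1 were not called, at -0.13 ± 0.11 and 0.24 ± 0.11 against Control, and Calcoco1 was called higher against both other groups with library totals.

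Of the 4 mitophagy genes only Pink1 was called, and with TMM the other 3 had log2 fold changes below 0. The 1 fall is 25% of these genes, beside 18% of all genes that fell against Control. With library totals the log2 fold changes against Control were above 0 for Bnip3l (0.15) and Fundc1 (0.08) and below 0 for Bnip3 (-0.21). None of these was called. Pink1 (ENSMUSG00000028756.11, chromosome 4, 138313409 to 138326307), the kinase that accumulates on damaged mitochondria and phosphorylates ubiquitin there, had 215 and 177 CPM in G1, 290.0 and 218 in G2, 404, 512 and 462 in wild type (single mutant) and 463, 497 and 476 CPM in Control kidneys. Its level in the risk libraries was 225 ± 47.1 CPM (mean ± SD, n = 4), against 459 ± 53.8 CPM in wild type (single mutant) and 479 ± 16.8 CPM in Control (n = 3 each). The log2 fold change was -1.10 ± 0.13 over Control and -1.04 ± 0.13 over wild type (single mutant) (adjusted p = 0.000377 and 0.000443), the largest fall among the members against Control.

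The hypoxia-induced mitophagy receptor Bnip3 had 94.9 and 77.8 CPM in G1, 90.4 and 78.1 in G2, 132, 156 and 82.2 in wild type (single mutant) and 103, 112 and 142 CPM in Control kidneys. Its libraries lay between 82.2 and 156 CPM within wild type (single mutant), which overlapped the risk libraries, while the 3 Control libraries lay above them. At -0.48 ± 0.21 over Control and -0.54 ± 0.21 over wild type (single mutant) it was not called (adjusted p = 0.102 and 0.0697). With only the compared groups in the fit it was called lower against Control, and with DESeq2 against wild type (single mutant). Without wild type (single mutant) replicate 3 it was called lower in both comparisons (adjusted p = 0.0258 for Control and 0.00603 for wild type (single mutant)). Bnip3 shares 24.6% of its transcript windows of 100 bases with predicted genes, so its counts are uncertain. Bnip3l, whose protein NIX clears mitochondria from maturing red cells, had 85.0 and 80.5 CPM in G1, 89.6 and 84.4 in G2, 96.0, 100.1 and 92.6 in wild type (single mutant) and 93.5, 89.4 and 94.1 CPM in Control kidneys. It was not called (-0.12 ± 0.07 against Control, adjusted p = 0.199), except by DESeq2 as lower than wild type (single mutant). Bnip3l shares 14% of its transcript windows of 100 bases with its pseudogene Bnip3l-ps, so its counts are uncertain as well. All 6 erythroid markers tested fell against Control and 5 of them against wild type (single mutant). Their part in the Bnip3l values was not tested. Fundc1, an outer membrane receptor, had 26.4 and 27.5 CPM in G1, 25.3 and 30.2 in G2, 28.7, 28.9 and 33.8 in wild type (single mutant) and 32.6, 31.9 and 29.7 CPM in Control kidneys, and was not called either (-0.20 ± 0.10 against Control).

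**Figure D4:**
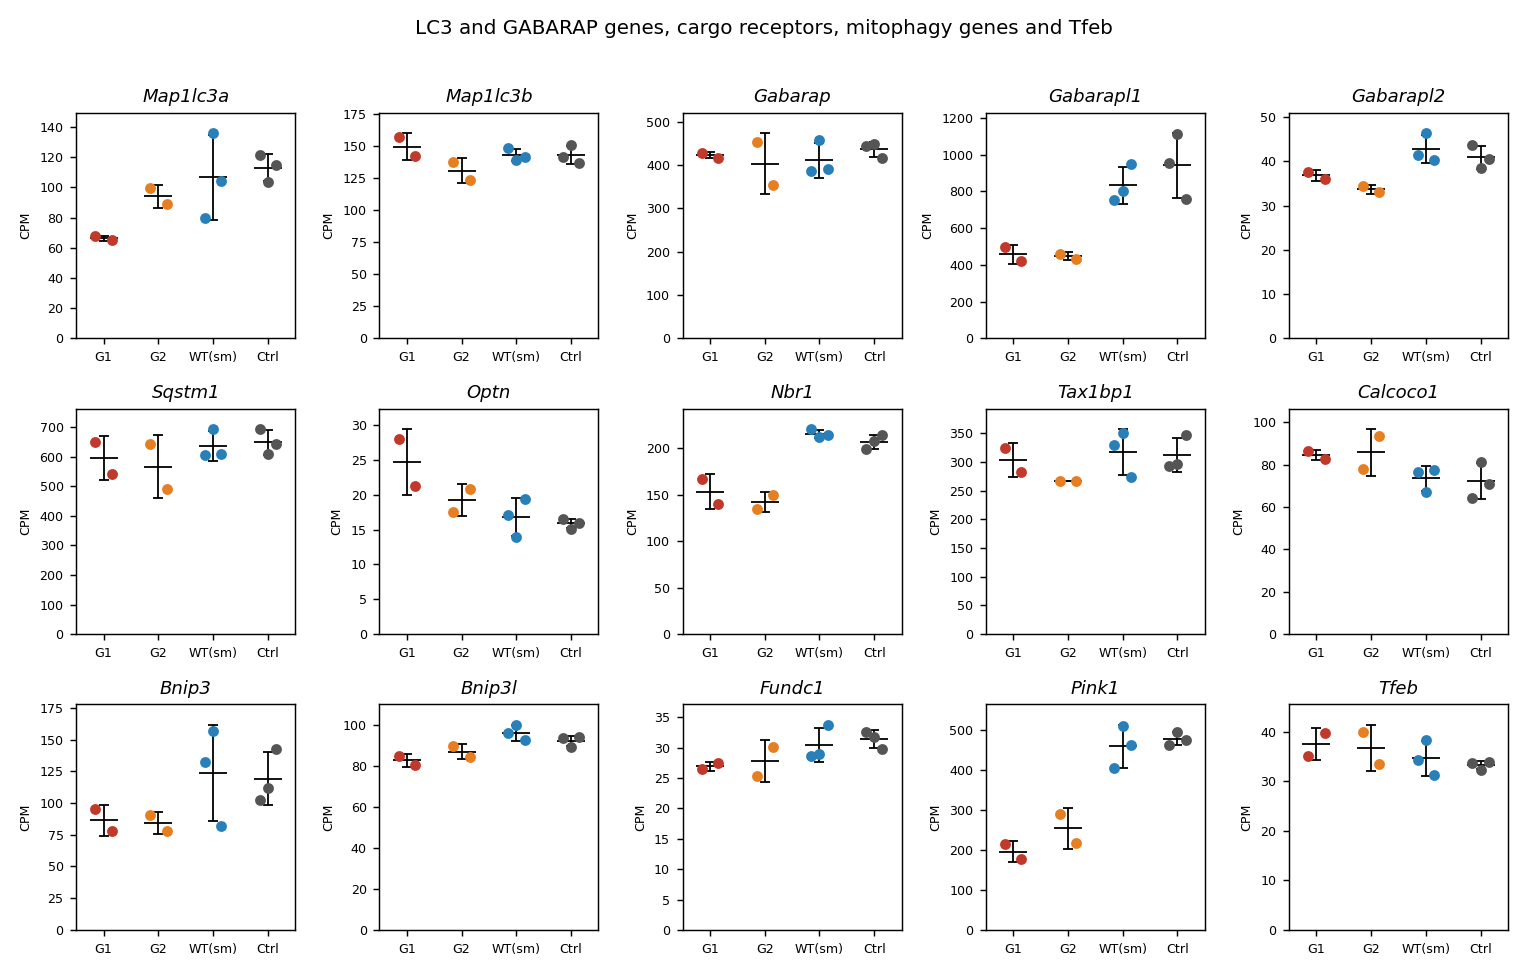
Normalised level (CPM, TMM-scaled; vertical axis from 0) in each library of the LC3 and GABARAP genes, the cargo receptors, the mitophagy genes and Tfeb; points are libraries of G1, G2, wild type (single mutant) (WT(sm)) and Control (Ctrl), and bars give the mean ± SD. Gabarapl1, Nbr1 and Pink1 are lower in every G1 and G2 library, while Map1lc3b, Gabarap and Sqstm1 overlap between groups.

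Of the 2 transcription factor genes, Tfe3 rose and Tfeb was not called, where 19.3% of all genes rose against Control. Tfe3 (ENSMUSG00000000134.16, chromosome X, 7762560 to 7775202) had 51.9 and 50.4 CPM in G1, 41.2 and 36.3 in G2, 30.2, 30.2 and 27.7 in wild type (single mutant) and 29.1, 29.7 and 29.0 CPM in Control kidneys. The 6 other libraries lay between 27.7 and 30.2 CPM, below every risk library. The log2 fold change was 0.60 ± 0.08 over Control and 0.60 ± 0.08 over wild type (single mutant) (adjusted p = 0.000552 and 0.000508). Tfeb had 35.1 and 39.7 CPM in G1, 40.0 and 33.4 in G2, 34.3, 38.3 and 31.2 in wild type (single mutant) and 33.6, 32.3 and 33.8 CPM in Control kidneys, with overlapping groups and a log2 fold change of 0.16 ± 0.10 against Control (adjusted p = 0.251). It was called higher against both other groups with library totals. TFEB and TFE3 are controlled mainly by their entry into the nucleus, which was not measured.

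The remaining genes of the pathway were taken from a list of 71, of which 70 were tested; the cargo receptor gene Calcoco2 had too few reads. Against Control 23 fell, 2 rose and 45 were not called, with a median log2 fold change of -0.21. These are 32.9% and 2.86% of the genes tested, beside 18% and 19.3% of all genes. With library totals 12 (17.1%) were higher and 11 (15.7%) lower, beside 33.9% and 8.98% of all genes. Against wild type (single mutant) 32 (45.7%) fell and 2 (2.86%) rose, beside 19.3% and 20.7% of all genes, and 19 fell without G1 replicate 2. Mitophagy genes other than members had 7 falls among 13 (53.8%), beside the 18% of all genes. Among them, Mfn2, the outer membrane fusion protein that PINK1 phosphorylates, had 92.2 and 82.5 CPM in G1, 98.9 and 92.3 in G2, 169.8, 186 and 176 in wild type (single mutant) and 179, 177 and 203 CPM in Control kidneys, a log2 fold change of -1.03 ± 0.09 (adjusted p = 8.99e-05). Nipsnap1, a mitochondrial protein that gathers autophagy receptors, and Vdac1, the outer membrane channel, had -0.70 ± 0.12 and -0.58 ± 0.11 (adjusted p = 0.00266 and 0.00299). Proximal tubule markers were low in the same libraries, with the sums given above.

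Of 7 tested receptors for the endoplasmic reticulum, ferritin and other cargo 6 fell (85.7%). Shares in this paragraph stand beside 18% of all genes that fell and 19.3% that rose against Control. Sec62, a translocon subunit and receptor of recovery from endoplasmic reticulum stress, had -0.68 ± 0.09 against Control, Retreg1 (FAM134B), which sorts sheets of this membrane, -0.73 ± 0.11, and Ncoa4, the receptor of ferritin, -1.02 ± 0.21 (adjusted p = 0.000624, 0.00111 and 0.00478). Among 18 genes of mTORC1 and AMPK, the kinases that inhibit and activate ULK1, 5 fell (27.8%) and 1 rose (5.56%). Prkaa2, a catalytic subunit of AMPK, had 113 and 87.8 CPM in G1, 92.1 and 101 in G2, 202, 220.4 and 165 in wild type (single mutant) and 179, 217 and 218 CPM in Control kidneys, a log2 fold change of -1.05 ± 0.13 (adjusted p = 0.000548). The folliculin partner Fnip1 had -0.65 ± 0.07 and Tsc2, an inhibitor of mTORC1, -0.48 ± 0.09 (adjusted p = 0.000199 and 0.00407). The 1 rise was in Prkab1, a regulatory subunit of AMPK (0.42 ± 0.11, adjusted p = 0.0197), chosen for mention after its value was seen. Without G1 replicate 1 or Control replicate 1 0 of the 70 genes rose, and without G1 replicate 2, G2 replicate 1, wild type (single mutant) replicate 3, Control replicate 2 or Control replicate 3 1 did, where 2 (Prkab1 and Vmp1) rose with all libraries. Of 17 genes of fusion and maturation 2 fell (11.8%) and 1 rose (5.88%), both below the shares of all genes. Vps33a, a subunit of the tethering complexes for lysosomes, and the SNARE gene Snap29 had -0.47 ± 0.08 and -0.30 ± 0.09, and Vmp1, which works on the early membrane, 0.33 ± 0.11 (adjusted p = 0.00221, 0.0308 and 0.0424). Of 10 scaffold and lipid effectors 2 fell (20%), near the share of all genes. These were Tex264, a further receptor of the endoplasmic reticulum, at -0.36 ± 0.09 and Wdfy3, the scaffold ALFY, at -0.32 ± 0.11. Of 5 other transcription factors Foxo1, a regulator of autophagy genes, fell (20% of the 5, at -0.75 ± 0.15, adjusted p = 0.00421). All falls named among these pathway genes are calls with TMM, and which of them held with library totals was not examined gene by gene. With library totals the median of all genes against Control was 0.28, near in size to the falls of Snap29, Tex264 and Wdfy3.

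Wild type (single mutant) and Control kidneys were compared to see how far the 2 sets of kidneys without a labelled risk allele differed. Of the 44 members 0 were called in edgeR, 0 had an unadjusted p under 0.05, and DESeq2 called 0. The share of all genes called was 0%, with 724 of 17823 at an unadjusted p under 0.05 and 14 called by DESeq2. Log2 fold changes of the members ran from -0.18 (Gabarapl1) to 0.27 (Wipi1), with a median of 0.06. A p that misses the threshold does not show that the levels are alike: for Gabarapl1 the estimate was -0.18 ± 0.16 (SE).

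Kidneys with G2 and G1 were compared to see whether the alleles differed. Of the 44 members, 1 rose and 1 fell in G2 relative to G1 (2.27% each), where 3.84% of all genes rose and 2.88% fell, 6.72% in either direction. Atg10 was at 14.1 and 13.7 CPM in G2 and 9.38 and 9.57 CPM in G1, differing by 0.55 ± 0.13 on the log2 scale (edgeR, Benjamini-Hochberg adjusted p = 0.0372). Tfe3 was at 41.2 and 36.3 CPM in G2 and 51.9 and 50.4 CPM in G1, a log2 fold change of -0.40 ± 0.10 (adjusted p = 0.0461). Neither pair of libraries overlapped. Both calls were lost without any 1 of several libraries, that of Atg10 without any G1 or G2 library, wild type (single mutant) replicate 1 or Control replicate 1 (adjusted p up to 0.205), and that of Tfe3 in every leave-out other than those of G2 replicate 1 and wild type (single mutant) replicate 3 (up to 0.226). Map1lc3a, at 99.2 and 88.7 CPM in G2 and 67.5 and 65.1 CPM in G1, was not called (0.50 ± 0.21, adjusted p = 0.18), nor was Pink1 (0.38 ± 0.17, adjusted p = 0.216). Proximal tubule markers summed to 9541 to 10933 CPM in G2 and 5131 to 6107 CPM in G1, and tubular injury markers to 4827 to 8646 CPM in G2 and 20763 to 29862 CPM in G1. Their part in the differences of Atg10 and Tfe3 was not tested.

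Among the other pathway genes 1 rose (1.43%) and 4 fell (5.71%) in G2 relative to G1, beside 3.84% and 2.88% of all genes. Stbd1, a receptor that links glycogen to the autophagosome, was at 19.9 and 21.9 CPM in G2 and 9.33 and 6.75 CPM in G1 (1.38 ± 0.19, adjusted p = 0.0106). The falls were Retreg1 (-0.92 ± 0.14), Vmp1 (-0.82 ± 0.15), Prkab1 (-0.70 ± 0.15) and Bcl2l1, whose protein binds beclin 1 (-0.82 ± 0.13), with adjusted p from 0.0136 to 0.0316. These 5 genes were named after their values were seen. With G1 replicate 1 or G1 replicate 2 left out, 0 pathway genes fell, and with G2 replicate 2 left out 1 fell. With G1 replicate 2 or G2 replicate 2 left out, 0 rose.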

How the data were processed

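Poly(A) RNA of mouse kidney was counted per gene in 10 libraries. The deposited values are raw counts, 1 table per library, and per the submitters' processing notes the authors used STAR 2.4.1d, HTSeq 0.6.1, Trim Galore, CASAVA 1.8.2 and FastQC with GRCm38. Neither their settings nor the annotation release or strandedness of counting is given in the sources used here. How reads of overlapping or near-identical genes were treated is therefore unknown. Symbols, positions and exonic lengths came from GENCODE M21 (GRCm38), where 46005 of 46517 IDs matched.

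Groups follow the genotype label. Counts were scaled by TMM in edgeR 4.0.16 under R 4.3.3, and filterByExpr (minimum count 10) kept 17823 genes. All 10 libraries entered 1 quasi-likelihood model having a mean for each group. The fit was run on simulated counts with as many rises as falls. Those counts held no shift in composition, so that run says nothing about the choice of scaling. Calls needed an adjusted p (Benjamini-Hochberg, all genes tested) under 0.05. The risk alleles are the mean of the G1 and G2 coefficients. CPM are counts per 1000000 on TMM-scaled totals, RPKM the same per kilobase of exon. SE came from the fold change and its F statistic. Transcript windows of 100 bases were matched exactly to other GENCODE genes on either strand.

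The members, steps, marker and pathway lists were chosen with earlier results of these data known. Values in every library are given for members called against both Control and wild type (single mutant) without overlap. They are also given for members called between G2 and G1 and for a set of core genes. Of the other pathway genes, up to 3 per list with the lowest p are named, most of them without values in every library. Alternatives were library totals, DESeq2 1.42.0, no filter, only the groups compared, and each library left out. Protein sequences were not used here.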

Additional observations from a re-analysis of the deposited data

Results flagged for a closer look

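A total of 2 members differed between the alleles by the test of the difference itself. Atg10 was higher in G2 than in G1 kidneys, by 0.55 ± 0.13 on the log2 scale (quasi-likelihood test of edgeR, adjusted p = 0.0372), and both G2 libraries were above both G1 libraries. Tfe3 was lower in G2 than in G1 kidneys, at -0.40 ± 0.10 (adjusted p = 0.0461), and both G2 libraries were below both G1 libraries. Groups of 2 and 3 libraries are too small for a test of single outlying libraries, and none was made.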

How the results depend on the processing

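With library totals in place of TMM factors, against Control 11 members rose and 5 fell, against wild type (single mutant) 10 rose and 6 fell, and between G2 and G1 0 rose. Among members called with either scaling, those that turned in sign with library totals were Atg4b (0.23) and Map1lc3b (0.24) against Control, and Atg12 (0.060), Map1lc3b (0.25) and Gabarapl2 (0.010) against wild type (single mutant). By its construction this scaling shifts all genes together, by a median of 0.28 against Control. A further 14 members relative to Control and 15 relative to wild type (single mutant), called with neither scaling, also turned in sign. Between G2 and G1, 0 members rose and 0 fell with no filter on low counts, and 0 rose and 0 fell with only the groups compared in the fit; the cause was not tested. Calls of 4 members relative to Control and 3 relative to wild type (single mutant) were lost with no filter, and 2 and 2 with only the groups compared. With DESeq2 the member counts stayed within 1.5 times in all 4 comparisons, at 5 risen and 14 fallen against Control and 4 and 18 against wild type (single mutant). Over all genes, counts that moved by more than 1.5 times were 6036 risen and 1601 fallen against Control (TMM 3441 and 3212) and 6226 and 1711 against wild type (single mutant) (TMM 3681 and 3440) with library totals, and between G2 and G1 1222 risen and 1277 fallen with DESeq2 and 451 risen with only the groups compared (main 684 and 514). Between wild type (single mutant) and Control, DESeq2 called 2 risen and 12 fallen genes and the fit with no filter 4 fallen (main 0 and 0). Of other pathway genes, 12 rose and 11 fell against Control and 12 and 12 against wild type (single mutant) with library totals (main 2 and 23, and 2 and 32), 1 rose against Control with no filter or with only the groups compared, and 12 fell between G2 and G1 with DESeq2 (main 4).

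Leaving out each library gave 3 to 5 risen and 7 to 13 fallen members against Control, 3 to 5 risen and 9 to 14 fallen against wild type (single mutant), 0 and 0 between wild type (single mutant) and Control, and 0 to 1 risen and 0 to 1 fallen between G2 and G1. The lowest counts against Control came without G1 replicate 1 (3 risen, 7 fallen), G1 replicate 2 (7 fallen), G2 replicate 1 (8 fallen), Control replicate 1 (3 risen) and Control replicate 3 (3 risen, 8 fallen), and against wild type (single mutant) without G1 replicate 2 (9 fallen). Over all genes the falls against Control were 2130 without G1 replicate 2, and between G2 and G1 the calls dropped to 11 risen and 11 fallen without G1 replicate 2. A lone library of an allele was assumed to vary like the other groups. No paired analysis was possible because the labels give no replicate numbers shared between groups, and the opening letters that some library titles share across groups are not explained; their part in the results was not tested.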
